A study of Mus musculus with 4 samples.

Results

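Intermediate progenitors are the dividing cells that lie between radial glia, the stem cells of the embryonic brain, and excitatory neurons of the cortex. They leave the ventricular surface, switch on the T-box factor Eomes (Tbr2) and divide a limited number of times to give neurons. The 10 genes described here were listed by name as markers of this stage or of the commitment to neurons around it: Eomes, Tmem158, Mfng, Insm1, Gadd45g, Btg2, Hes6, Nhlh1, Sstr2 and Mfap4. All 10 were found once each in the 3 deposited tables, out of 22084 genes in all. Several of them also act in dividing neuronal precursors of the ventral telencephalon, where Eomes is largely absent, so only part of the list is specific to the cortical lineage.

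RNA was counted in 4 libraries of mouse telencephalic tissue at stage E13.5, all of strain B6D2F2. KO26F and KO23M were TCF20-/-, WT25F was TCF20+/+, and WT22M was named wild type in its title but TCF20+/- in its genotype field. The design text of the series speaks of heterozygous animals as well. Under both readings WT22M keeps a working copy of the gene, so WT25F and WT22M are grouped as carriers. The protocol speaks of dissected cerebral cortex, while the tissue field speaks of telencephalic tissue. The series asks how Tcf20, a nuclear chromatin-associated protein, bears on the formation of neurons. The labels name neither the kind of Tcf20 allele nor the litters. A p-value here sets the difference between groups against the spread of these samples, and whether the embryos are independent is not known. Library totals ran from 17791641 to 18509743 counts. The letter in each title matched Xist, with at least 450 CPM (a gene's counts scaled to a common library total) in F libraries and 0.169 or less in M libraries. Tcf20 itself stood at 98.6 and 104 CPM in the KO libraries and 118 and 111 in the carriers (log2 fold change -0.18, SE 0.10, edgeR adjusted p = 0.9997). Counts per gene do not show which part was deleted, so this level checks the genotype labels neither way.

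The labelled tissue was checked against its markers. Emx1, a factor of the cortical part of the telencephalon, stood at 107 CPM or more, and all 6 markers fixed for intermediate progenitors (Eomes, Neurog2, Insm1, Sstr2, Neurod4, Unc5d) were detected in every library. Neurod4 was the lowest of the 6, at 2.97 to 3.97 CPM. The tissue was not pure cortex. Ventral genes were abundant (Dlx1 at 377 to 418 CPM, Nkx2-1 at 47.1 to 98.7), and WT25F held more RNA of diencephalic genes than the other libraries, with the summed level of 7 such genes at 99.7 CPM against 40.0 to 44.7. WT22M held little choroid plexus RNA, with 5 genes summing to 189 CPM against 760 to 975. In bulk tissue, fewer cells of a type and less RNA per cell cannot be told apart.

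Promoter sequence was searched for short motifs, and each count is given beside the share over all promoters. The E-box, CANNTG on either strand, is the site of basic helix-loop-helix factors such as Neurog2. RefSeq promoters (GRCm38.p6, the 250 bases before the annotated start) were matched for 6 of the 10 genes, and the first listed promoter of each was searched. Of these, Gadd45g, Hes6 and Nhlh1 held an E-box and Eomes, Btg2 and Sstr2 did not, against 66.2% of 32851 promoters of the same length. CAGATG was found in 1 of the 6 (Nhlh1) and in 14.4% of all promoters, and CAGCTG in 2 (Gadd45g and Hes6) and in 13% of all; both are forms of CANNTG and overlap with it. GTGGGAA, the site of the Notch effector RBPJ, was found on neither strand in any of the 6 and in 5.42% of all. CCAAT, a general promoter element, was found in 4 of the 6 (Eomes, Gadd45g, Btg2 and Nhlh1) and in 33.8% of all. The 3 promoters with an E-box are shown beside that of Eomes, the gene that defines the cell type. E-boxes are in capitals, 5′ to 3′ on the strand of the gene. The Eomes window is chr9:118477939-118478188 (plus strand), that of Hes6 is chr1:91414039-91414288 (minus strand), that of Gadd45g is chr13:51846425-51846674 (plus strand) and that of Nhlh1 is chr1:172057597-172057846 (minus strand).
Eomes: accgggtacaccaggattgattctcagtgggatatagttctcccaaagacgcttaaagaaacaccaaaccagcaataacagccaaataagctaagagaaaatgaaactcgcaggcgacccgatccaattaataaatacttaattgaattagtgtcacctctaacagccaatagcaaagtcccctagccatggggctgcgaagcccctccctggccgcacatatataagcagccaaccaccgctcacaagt
Hes6: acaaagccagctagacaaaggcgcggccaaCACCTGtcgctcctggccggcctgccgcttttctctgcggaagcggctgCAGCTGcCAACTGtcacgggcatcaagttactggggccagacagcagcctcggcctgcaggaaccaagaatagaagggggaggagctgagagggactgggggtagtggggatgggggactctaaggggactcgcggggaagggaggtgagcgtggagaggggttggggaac
Gadd45g: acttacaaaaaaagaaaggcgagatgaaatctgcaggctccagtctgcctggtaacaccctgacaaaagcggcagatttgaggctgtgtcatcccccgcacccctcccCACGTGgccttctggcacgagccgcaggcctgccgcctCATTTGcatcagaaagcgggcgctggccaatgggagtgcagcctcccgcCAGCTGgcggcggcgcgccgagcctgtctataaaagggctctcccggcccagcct
Nhlh1: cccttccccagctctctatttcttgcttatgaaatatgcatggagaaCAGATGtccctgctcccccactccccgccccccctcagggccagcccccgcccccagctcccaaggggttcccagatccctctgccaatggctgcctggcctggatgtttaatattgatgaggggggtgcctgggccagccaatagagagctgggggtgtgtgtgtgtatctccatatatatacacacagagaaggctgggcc
The Hes6 window holds 3 E-boxes, of which the last 2 lie 1 base apart, and the Gadd45g window holds 3 as well, farther apart. Nhlh1 holds 1, far from the start, and Eomes none. Hes6 has a second RefSeq promoter inside the gene, with 1 E-box. A match is a description of letters and not a bound site.

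By position, the genes were scattered over 6 chromosomes: Btg2, Hes6 and Nhlh1 on chromosome 1, Eomes and Tmem158 on 9, Sstr2 and Mfap4 on 11, and Insm1, Gadd45g and Mfng on 2, 13 and 15. All are protein-coding, and their positions in the files equal those of GENCODE vM21 on GRCm38. Insm1 (ENSMUSG00000068154, chromosome 2, 146221921 to 146225020) and Tmem158 (ENSMUSG00000054871, chromosome 9, 123259053 to 123260764) consist of a single exon. Eomes (ENSMUSG00000032446, chromosome 9, 118478212 to 118486132) is overlapped by the antisense gene Gm33460, Sstr2 by Slc39a11 and Mfap4 by Mapk7, each on the opposite strand. Without a stated strand setting, reads of these partners could not be told from those of the listed gene. Mfng (chromosome 15, 78755882 to 78773475) lies on the same chromosome as Tcf20 itself (82808629 to 82912134). The part of linkage to the Tcf20 allele in the Mfng level was not tested.

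Each gene was well covered, with 750 to 4332 counts per library. Per length of exon sequence, as RPKM (CPM divided by exon length in kilobases), Hes6 was the most abundant in the mean of the 4 libraries (87.8) and Nhlh1 the least (27.6). Insm1 (71.1) and Gadd45g (65.1) followed Hes6, then Mfap4 (53.1), Sstr2 (43.1), Eomes (38.7), Mfng (38.3), Tmem158 (30.9) and Btg2 (29.5). Over the libraries, RPKM of Hes6 (81.4 to 94.1) lay above that of Insm1 (66.6 to 77.1) without overlap. The same held for Gadd45g (58.1 to 73.5) above Mfap4 (51.1 to 55.3) and for Mfap4 above Sstr2 (37.2 to 47.0). All other neighbours in this order overlapped.

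**Figure D1:**
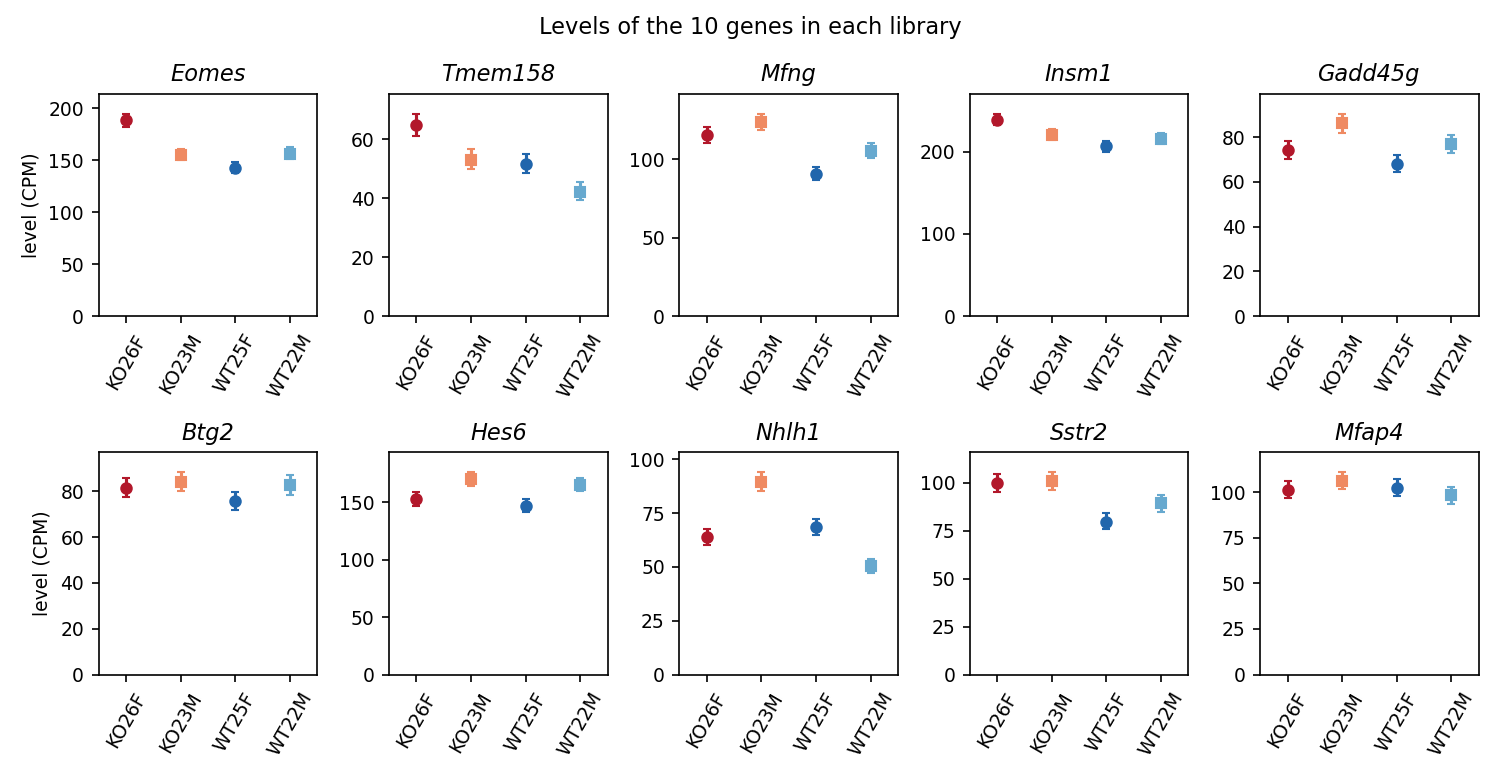
Level of each of the 10 genes in CPM (vertical axes start at 0) in the 2 KO libraries (red and orange) and the 2 carriers (dark and light blue), with circles for the F and squares for the M libraries. Bars are 95% Poisson counting intervals. The KO libraries lie above both carriers for Tmem158, Mfng, Insm1 and Sstr2, and Nhlh1 spreads most.

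Eomes, the T-box factor that defines intermediate progenitors, stood at 143 CPM in WT25F (95% counting interval 137 to 148) and 156 in WT22M (151 to 162), against 188 in KO26F (182 to 195) and 155 in KO23M (150 to 161). KO26F alone was high, and KO23M lay inside the range of the carriers. The means were 172 ± 23.2 CPM (SD, n = 2) in KO and 150 ± 9.61 (SD, n = 2) in carriers, which gave a log2 fold change of 0.19 (SE 0.11). This missed the threshold of an adjusted p of 0.05 in edgeR's quasi-likelihood test (edgeR adjusted p = 0.9997, unadjusted p = 0.0816). The log2 fold change of Eomes was 0.07 without KO26F and 0.11 without WT25F, and 0.31 without KO23M. Between the F libraries the log2 ratio of KO to carrier was 0.40 (95% counting interval 0.32 to 0.47), and between the M libraries it was -0.01 (-0.08 to 0.07).

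Insm1, a zinc finger factor that drives the birth of basal progenitors, stood at 206 CPM in WT25F and 216 in WT22M, against 239 in KO26F and 220.5 in KO23M. The KO libraries were the higher pair, but KO23M exceeded WT22M by 0.03 on the log2 scale (95% counting interval -0.03 to 0.09). The fitted log2 fold change was 0.12 (SE 0.10, edgeR adjusted p = 0.9997), and 0.06 for Insm1 without WT25F and 0.08 without KO26F.

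Hes6, a Hes relative that counters Hes1 and favours neuronal differentiation, stood at 147 CPM in WT25F and 165 in WT22M, against 153 in KO26F and 170.1 in KO23M. Here the M libraries were the higher pair, and KO and carriers overlapped (log2 fold change 0.04, SE 0.11). Nhlh1, a helix-loop-helix factor of cells that have just left the cycle, stood at 68.4 CPM in WT25F and 50.2 in WT22M, against 63.9 in KO26F and 89.6 in KO23M. The highest and the lowest value were both in M libraries, while the F libraries lay between them. Its log2 fold change was 0.37 (SE 0.23, edgeR adjusted p = 0.9997), the largest of the 10 and the least certain. The log2 ratio of KO to carrier for Nhlh1 was -0.10 between F libraries (95% counting interval -0.22 to 0.02) and 0.83 between M libraries (0.72 to 0.95). Without KO26F the test called Nhlh1 higher in KO (log2 fold change 0.61, edgeR adjusted p = 0.000264), and so it did without WT25F (0.59 there, edgeR adjusted p = 0.0286). Without KO23M the log2 fold change of Nhlh1 was 0.08 and without WT22M 0.18, and neither passed. Each of these fits leaves 1 library in an arm, which is assumed to vary like the other arm, and in those that passed that lone library was the highest or the lowest for Nhlh1.

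Mfng and Tmem158 act at the cell surface or in its signalling. Mfng, a fringe glycosyltransferase that tunes how Notch receptors answer their ligands, stood at 115 CPM in KO26F and 124 in KO23M, against 90.8 in WT25F and 105 in WT22M. Both KO libraries lay above both carriers, and WT25F was the lowest. The means were 120 ± 5.95 against 98.0 ± 10.2 CPM (SD, n = 2 each), and the log2 fold change of Mfng was 0.28 (SE 0.11 by edgeR, edgeR adjusted p = 0.9997, unadjusted p = 0.0140). Tmem158, a membrane protein induced by Ras signalling, stood at 64.8 CPM in KO26F and 53.1 in KO23M, against 51.7 in WT25F and 42.2 in WT22M. Again both KO libraries were higher, but KO23M and WT25F were within counting error of each other (log2 ratio 0.04, 95% counting interval -0.09 to 0.17). The log2 fold change of Tmem158 was 0.32 (SE 0.12, edgeR adjusted p = 0.9997, unadjusted p = 0.0131). It was 0.20 for Tmem158 without KO26F or without WT22M, and for Mfng it was 0.16 without WT25F. Within the letters the log2 ratio of KO to carrier for Tmem158 was 0.33 in the F and 0.33 in the M libraries, and for Mfng it was 0.35 and 0.23. A fit with the letter as a block has 1 degree of freedom left for the spread. In it Mfng (edgeR adjusted p = 0.0170) and Tmem158 (edgeR adjusted p = 0.0340) were called higher, 2 of the 10 genes, against 0.375% of all genes tested that were called higher there. The 10 genes were listed with their upward lean in these data known, so this count is a description and not a separate result.

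Sstr2, a somatostatin receptor of the subventricular zone, had the smallest spread within the KO pair (SD 0.835 CPM). It stood at 99.6 CPM in KO26F and 101 in KO23M, against 79.7 in WT25F and 89.3 in WT22M, so the carriers lay farther apart than the KO libraries. The log2 fold change was 0.24 (SE 0.10, edgeR adjusted p = 0.9997, unadjusted p = 0.0301), and it missed the threshold with the letter as a block as well (edgeR adjusted p = 0.128). Without WT25F the Sstr2 value was 0.14.

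Gadd45g and Btg2 restrain the cell cycle as precursors commit. Gadd45g, a stress and growth-arrest protein of differentiating progenitors, stood at 68.1 CPM in WT25F and 77.1 in WT22M, against 74.3 in KO26F and 86.2 in KO23M, so that WT22M lay between the KO libraries. Its log2 fold change was 0.14 (SE 0.11), and for Gadd45g it was 0.0070 without KO23M and 0.04 without WT25F, but 0.26 without KO26F and 0.25 without WT22M. Btg2 (Tis21), an antiproliferative protein that marks progenitors at their neuron-producing division, stood at 75.7 and 82.6 CPM in these carriers, against 81.6 and 84.0 in these KO libraries. WT25F was the low library and the other 3 were within counting error of each other, with a log2 fold change of 0.06 (SE 0.11). Mfap4, a fibrinogen-domain protein of the extracellular matrix, varied least, at 103 and 98.3 CPM in the carriers and 101 and 106 in the KO libraries (log2 fold change 0.05, SE 0.10). Mfap4 is also made by connective tissue elsewhere in the body. The summed level of 5 mesenchyme genes (Col1a1, Col1a2, Col3a1, Lum, Dcn) was 292 and 308 CPM in KO against 360 and 375 in carriers. Of the 5, 4 lay below both carriers in both KO libraries, beside 13.4% of all genes, and none was at 0. This list too was chosen with earlier results of these data known. The part of mesenchyme in the Mfap4 value was not tested.

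Across the 10 genes, 0 passed the threshold between KO and carriers, beside 10 of all 16252 genes tested (0.0615%). At an unadjusted p under 0.05 there were 3 of the 10, beside 464 of all genes (2.86%), and DESeq2 also called 0 of the 10. All 10 log2 fold changes were positive, from 0.04 (Hes6) to 0.37 (Nhlh1), with a median of 0.17 beside 0.00 over all genes, of which 50.7% were positive. In 4 of the 10 genes both KO libraries lay above both carriers, and in 0 both lay below, beside 13.6% and 13.4% of all genes. The highest library was KO23M for 7 genes and KO26F for 3, and the lowest was WT25F for 7 and WT22M for 3. The summed level of the 10 genes was 1181 CPM in KO26F and 1190 in KO23M, against 1033 in WT25F and 1083 in WT22M. The genes were listed with this upward lean already known, so it is a description and not a separate result.

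The carriers were also compared with each other. WT22M stood above WT25F for 7 of the 10 genes, with fitted log2 differences from -0.41 (Nhlh1) to 0.24 (Mfng) and a median of 0.16. None of the 10 passed in that comparison, beside 0.714% of all genes, and 1 had an unadjusted p under 0.05 in edgeR (Nhlh1, unadjusted p = 0.0244), beside 4.88% of all genes. KO against WT25F alone gave a median of 0.19 over the 10 genes, with 0 called beside 0.345% of all genes and 2 at an unadjusted p under 0.05 in edgeR, beside 3.43% of all genes. Both comparisons share WT25F, and each single library is assumed there to vary like the KO pair. DESeq2 also called 0 of the 10 in both comparisons. Without WT25F the median difference between KO and the remaining carrier was 0.09, and Btg2 (-0.02) and Hes6 (-0.06) were on the other side of 0. In the authors' deposited tables, which set single libraries against WT25F, 0 of the 10 genes are marked as significant, beside 1.96% of all genes for KO26F, 2.90% for KO23M and 3.62% for WT22M. The authors' deposited adjusted p was under 0.05 for 7 of the 10 genes in WT22M, 5 in KO26F and 8 in KO23M, beside 22.4%, 13.7% and 22.1% of all genes in those tables. Those deposited tests set 1 library against 1, so their p cannot include the spread between animals. The shares over all genes also include genes with few counts, while the 10 genes were well covered, so the counts and shares are not like for like. Every marked gene in the authors' deposited tables has a fold change of at least 2 in either direction, and the largest positive value among the 10 is a log2 fold change of 0.45 (Mfng in KO23M).

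**Figure D2:**
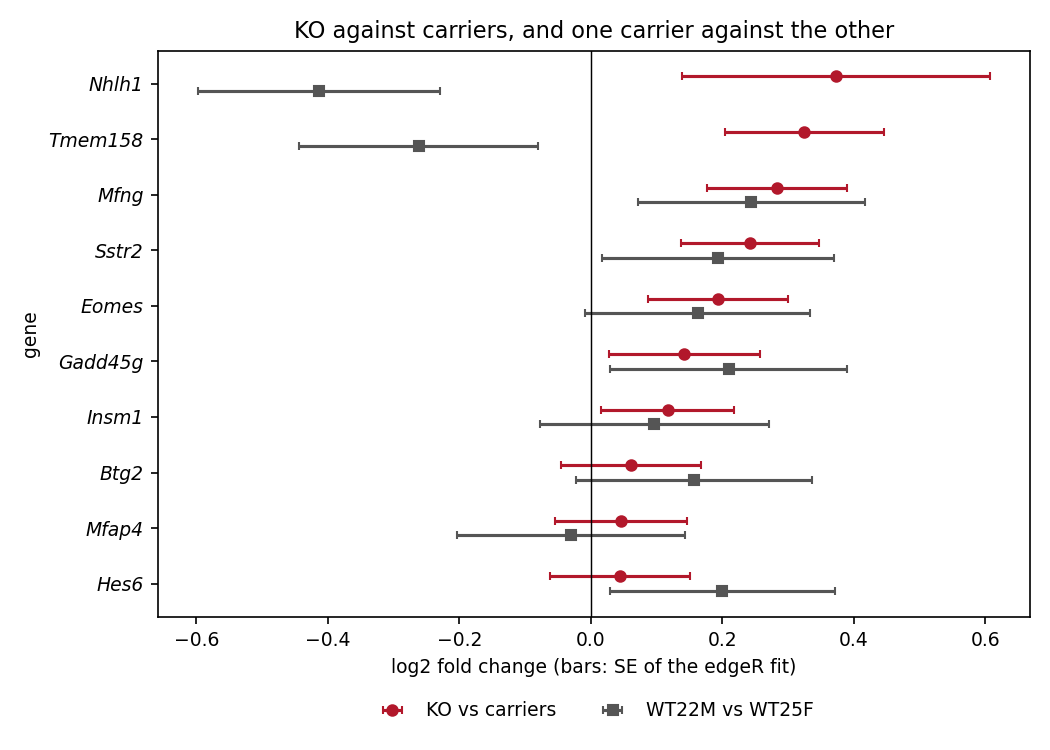
Log2 fold change of each gene (horizontal axis) for KO against carriers (red circles) and for WT22M against WT25F (grey squares), with bars of 1 SE from the edgeR fits. All red points lie above 0, from 0.04 to 0.37, and the grey points run from -0.41 to 0.24, with 7 of 10 above 0 and Nhlh1, Tmem158 and Mfap4 below.

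Likeness to Eomes was measured as the root mean square difference in log2 CPM over the 4 libraries, after each gene was centred on its own mean. It was taken over the listed genes and the other 9 members whose mean log2 CPM was 3 or more. Hes1, a Notch effector that keeps progenitors undifferentiated, lay 0.06 from Eomes and Tbr1, the factor of early-born deep-layer neurons, lay 0.07 from it. Among the other members Insm1 was nearest to Eomes (0.07). Hes1 stood at 23.6 CPM in WT25F and 28.2 in WT22M, against 33.9 in KO26F and 28.6 in KO23M. Tbr1 stood at 303 CPM in WT25F and 312 in WT22M, against 362 in KO26F and 293 in KO23M. KO26F was the highest library for Eomes, Hes1 and Tbr1 alike, and neither Hes1 nor Tbr1 passed between KO and carriers. WT25F was the lowest library for Eomes and Hes1 and had the highest diencephalic sum. The part of tissue makeup in the levels of the 10 genes was not tested.

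**Figure D3:**
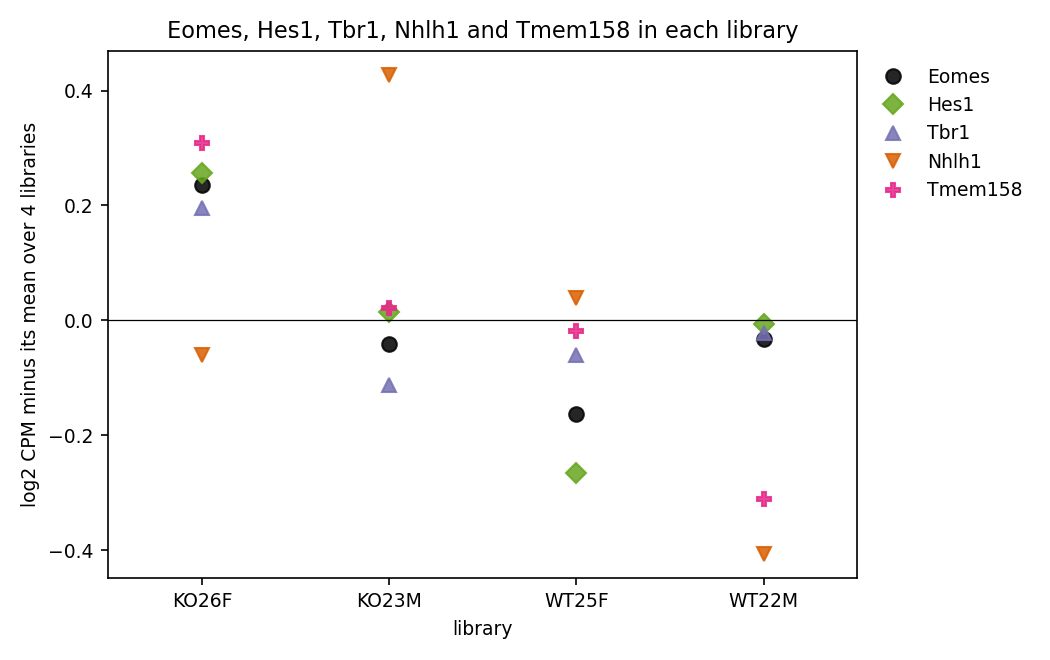
Log2 CPM minus its mean over the 4 libraries (vertical axis) in each library for Eomes, for Hes1 and Tbr1, which lie near it, and for Nhlh1 and Tmem158. Hes1 stays within a root mean square of 0.06 of Eomes, while Nhlh1 is highest in KO23M and lowest in WT22M.

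The other genes of the list did not all share the pattern of Eomes. Nhlh1 was the member farthest from each of the other 9, at a root mean square of 0.26 (Mfap4) to 0.35 (Eomes). Its nearest listed gene, looked up after its values were seen, was Nkx2-1, the factor of the medial ganglionic eminence and the preoptic area, at 83.6 CPM in WT25F, 47.1 in WT22M, 75.7 in KO26F and 98.7 in KO23M (root mean square 0.15). Nkx2-1 passed as lower in WT22M than in WT25F (log2 fold change -0.80, edgeR adjusted p = 0.00276), but not in DESeq2 (DESeq2 adjusted p = 0.489). That comparison called no gene without a filter on low counts, nor with the spread taken from the fit of KO against carriers. Nhlh1 and Nkx2-1 were thus both highest in KO23M and lowest in WT22M. Between the M libraries the log2 ratio of KO to carrier was 1.07 for Nkx2-1. For the other ventral genes listed it ran from -0.04 to 0.31. The share of ventral tissue in the Nhlh1 value was not tested. By the same lookup Mfng lay nearest to Dlx2, a ventral progenitor factor (0.03). Gadd45g lay nearest to Neurog2, the cortical proneural factor (0.03), Hes6 to Rcor2, a corepressor of neural precursors (0.03), Tmem158 to Mki67, a marker of dividing cells (0.04), and Insm1 to Lhx2, a factor of cortical progenitors (0.02). With 4 libraries these distances describe the libraries and say nothing of shared control.

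Stages of the excitatory lineage can be set against each other. Per length, the ratio of Eomes to Pax6, the radial glia factor, was 6.19 in WT25F and 7.23 in WT22M, against 7.40 in KO26F and 6.94 in KO23M. WT25F was low and the other 3 overlapped between KO and carriers. The ratio of Eomes to Tbr1 was 0.622 and 0.663 in the carriers and 0.686 and 0.701 in the KO libraries, with both KO libraries above both carriers. KO26F and WT22M lay close to each other here. No counting interval was taken for this ratio, and it was not tested. Tbr1 to Pax6 gave 9.96 and 10.9 in the carriers and 10.8 and 9.89 in the KO libraries, which overlapped.

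A list of 20 other genes of the same step, none of them among the 10, was set beside them. It was chosen with earlier results of these data known, so its counts are a description and not a separate result. None of the 20 passed between KO and carriers. Of the 20, 18 had a positive log2 fold change, beside 50.7% of all genes, with a median of 0.10 beside 0.00 over all genes. An unadjusted p under 0.05 in edgeR was found for 2, beside 2.86% of all genes, while DESeq2 also called 0. Both KO libraries lay above both carriers for 8 of the 20 and below for 1 (Cux2), beside 13.6% and 13.4% of all genes. Dll1 and Chd7 were among those with the smallest unadjusted p. Dll1, a Notch ligand shown by committing cells to their neighbours, stood at 56.0 and 60.8 CPM in the KO libraries against 49.6 in each carrier (log2 fold change 0.23, SE 0.11). Chd7, a chromatin remodeller, stood at 63.4 and 50.08 against 50.04 and 48.4 (0.20, SE 0.12).

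Dll3, a Notch ligand homologue that acts inside the cell and is made by committed precursors, was the list's only gene called in any of the 3 comparisons. It stood at 26.3 CPM in WT25F and 43.7 in WT22M, against 50.4 in KO26F and 44.1 in KO23M. WT25F alone was low. Dll3 passed as higher in KO than in WT25F (by 0.86 in log2, SE 0.16, edgeR adjusted p = 0.000121) and as higher in WT22M than in WT25F (0.76, SE 0.18, edgeR adjusted p = 0.00616), 2 comparisons that share WT25F. With DESeq2 Dll3 passed in neither (DESeq2 adjusted p = 0.103 and 0.951). Without a filter on low counts neither comparison called any gene, so Dll3 did not pass there. WT22M against WT25F also called no gene with the spread taken from the fit of KO against carriers. Between KO and both carriers the log2 fold change of Dll3 was 0.43 (SE 0.30).

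Markers of other cells that moved alongside the 10 genes are given as sums. The 8 genes of dividing cells summed to 915 and 880 CPM in KO26F and KO23M against 779 and 766 in WT25F and WT22M. Of the 8, 5 lay above both carriers in both KO libraries, beside 13.6% of all genes, and 0 were called. The smallest unadjusted p among them were those of Rrm2, Mki67 and Top2a, with log2 fold changes of 0.39 (SE 0.10), 0.25 (SE 0.11) and 0.20 (SE 0.10). The 8 ventral GABAergic genes summed to 1197 and 1224 against 1081 and 1027, with 6 of 8 above, beside the same 13.6% of all genes, and 0 called. Here Dlx2, Lhx6 and Gsx2 had the smallest unadjusted p, with log2 fold changes of 0.30 (SE 0.11), 0.25 (SE 0.10) and 0.31 (SE 0.17). The 8 radial glia genes overlapped (1765 and 1871 against 1797 and 1857), as did the 7 genes of excitatory neurons (2473 and 2293 against 2263 and 2479). Cajal-Retzius genes overlapped too (391 and 369 against 406 and 351). Microglia (60.02 and 64.1 against 67.2 and 81.8) and endothelium (195 and 202 against 219 and 212) lay on the lower side in KO. Erythroid genes overlapped (873 and 792 against 1169 and 682). With the title letter as a block, edgeR called higher 2 of the 8 dividing-cell genes (Rrm2 and Mki67), 1 of the 8 ventral genes (Dlx2) and 1 of the 4 erythroid genes (Hba-x), beside 0.375% of all genes. It called lower 2 of the 5 mesenchyme genes (Col1a1 and Col1a2), beside 0.381% of all genes, and 0 of the 20 of the wider neurogenic list. No gene of these lists was at 0 in any library. The sums of dividing-cell and ventral genes thus lay higher in both KO libraries, as did the sum of the 10 genes. The part of dividing and ventral cells in the levels of the 10 genes was not tested. These lists were chosen with earlier results of these data known, so their counts are a description and not a separate result.

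**Figure D4:**
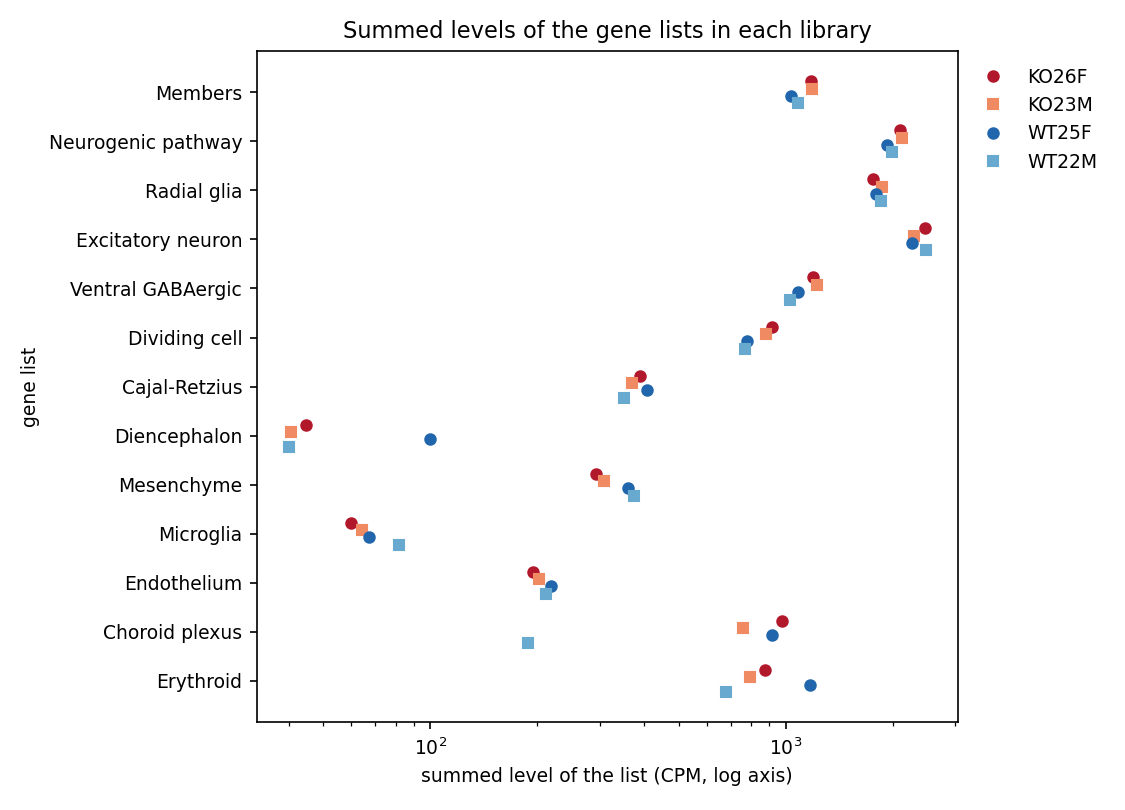
Summed level of each gene list in CPM (horizontal log axis) in the 2 KO libraries (red, orange) and the carriers (dark and light blue); Members are the 10 genes. KO libraries lie above both carriers for the 10 genes (1181 and 1190 against 1033 and 1083), the wider neurogenic list, dividing cells and ventral genes, while WT25F stands apart for diencephalon and WT22M for choroid plexus.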

How the data were processed

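In 3 tables the authors set KO26F, KO23M and WT22M beside WT25F. Per the file headers these hold a whole-number count per gene. The authors' normalized value, in CPM, is that count multiplied by a constant for the library, with 0.5 counts in place of 0. The authors deposited as well the fold change as a ratio, its log2 and a p-value with its adjusted form, from a test not given in the sources used here. Bowtie2 2.2.3, TopHat2 2.0.12, HTSeq 0.6.0 and the build mm9 are named in the submitters' processing notes, while 91.8% of 22039 genes have their GENCODE vM21 (GRCm38) position in the files.

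Tables were joined on the gene identifier, with a missing gene set to 0 counts. All 16252 genes left by filterByExpr were tested with edgeR 4.0.16 (quasi-likelihood, robust, TMM), 2 KO libraries against 2 carriers, and in a fit with 3 groups for comparisons with WT25F, with Benjamini-Hochberg adjustment over all genes at 0.05. The scripts were tested on simulated data. CPM printed here are counts over the joined library total, RPKM uses the exon length of GENCODE vM21, and intervals at 95% cover counting error only. With 2 libraries an arm, an exact permutation test of a single gene could not pass 0.05 and none was run. Alternatives were RLE, DESeq2 1.42.0, limma 3.58.1 voom, 2 other filters, the title letter as a block and each library left out. The 10 genes and the lists were chosen with earlier results of these data known. Genes were named by rule: the 10, Tcf20, any listed gene called, the 3 with the smallest p in each wider list, and the 3 listed genes nearest to Eomes. Some results that this rule would name are not reported here. Lists of other tissues are given by their sums, without those names. Dll3, Nkx2-1, Cux2, Dlx1 and the nearest genes of members other than Eomes were chosen after their values were seen. R 4.3.3 and Python 3.11.15 were used.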

Additional observations from a re-analysis of the deposited data

Results flagged for a closer look

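In 3 of the 10 genes the KO library lay on opposite sides of its carrier in the F and in the M libraries. With 1 library per letter and arm, none of these differences was tested. For Nhlh1 the log2 ratio of KO to carrier was -0.10 in the F libraries and 0.83 in the M libraries, a difference of 0.93. For Eomes the ratio was 0.40 in the F libraries and -0.01 in the M libraries, a difference of -0.41. For Mfap4 it was -0.02 and 0.11, a difference of 0.13. In each of the 3 genes the ratio below 0 has a 95% counting interval that includes 0 (Nhlh1 -0.22 to 0.02, Eomes -0.08 to 0.07, Mfap4 -0.11 to 0.08). The side of that ratio is thus uncertain in all 3. The interval of the other ratio was 0.72 to 0.95 for Nhlh1, 0.32 to 0.47 for Eomes and 0.02 to 0.21 for Mfap4. For Nhlh1 and Eomes the F and M intervals do not overlap, so the difference in size exceeds counting error. For Mfap4 they overlap.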

How the results depend on the processing

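The number of genes called between KO and carriers was 10, and it was 6 with limma voom, 123 with the title letter as a block and 42 to 110 with each library left out. Of the 10 genes described, 0 were called; with the letter as a block 2 were (Mfng and Tmem158), and with a library left out 0 to 1 (Nhlh1, without KO26F or without WT25F). Their median log2 fold change of 0.17 was 0.0877 to 0.191 with a library left out. With a library left out 8 to 10 were positive. Of the wider list 0 to 1 were called with a library left out, the 1 being Dll3, without KO23M or without WT22M. With each library left out, Hes6 ran from -0.0591 to 0.1475, Mfap4 from -0.0113 to 0.098 and Btg2 from -0.0197 to 0.142, negative without KO23M (Hes6, Mfap4) or without WT25F (Hes6, Btg2). KO against WT25F called 56 genes (558 at an unadjusted p under 0.05 in edgeR), 27 with DESeq2, 0 without a filter and 6 with the spread of the fit of 2 arms. WT22M against WT25F called 116 (793 at an unadjusted p under 0.05 in edgeR), 33 with DESeq2, 0 without a filter and 0 with that spread. The cause of these changes was not tested. The title letter is no replicate number, and no label says that it marks a litter or a day. At 750 to 4332 counts per gene and library, some ratios of KO to carrier had a 95% counting interval that included 0. These were 3 of the 10 genes in the F libraries and 4 in the M libraries. The intervals cover counting error only and do not show what difference between the arms could be detected.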
